A study of Rattus norvegicus with 40 samples.

Results

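The endoplasmic reticulum (ER) chaperones and unfolded protein response genes described here were 10 genes: Hspa5, Hsp90b1, Pdia4, Pdia6, Sdf2l1, Manf, Creld2, Herpud1, Xbp1 and Ddit3. Each was represented by the probe set whose only gene symbol in the array's annotation was that gene, and by the one of highest mean signal where a gene had several. All 10 were measured, each by 1 probe set, among 29214 probe sets on the array and 14506 genes with a probe set of their own. The hippocampus was taken on postnatal day 55 from rats whose early life had included lead, and its RNA was hybridised to Affymetrix arrays, 1 array per sample and 4 per group. The 8 exposed groups were males and females that received 250 or 750 ppm lead acetate in the chow, either perinatally (the dams ate it from 10 days before breeding until weaning, and the weaned pups then ate control chow) or postnatally (from birth until day 45, then control chow). The 2 reference groups were male and female controls at 0 ppm, so that 32 exposed and 8 control arrays were compared, and the study asked how dose, developmental window and sex bear on the response to lead. Animals exposed postnatally thus had 10 days without lead chow before death. The labels name neither the strain nor the litters. Signals are log2 values, in which a difference of 1 is a doubling.

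The ER is the compartment in which secreted and membrane proteins fold. When folding fails there, 3 membrane sensors known as IRE1, ATF6 and PERK start the unfolded protein response. IRE1 splices the Xbp1 mRNA and ATF6 is cut to release a transcription factor, and both factors raise chaperones, folding enzymes and degradation genes. PERK slows translation and acts through ATF4, which induces Ddit3. In the brain, neurons with a heavy load of membrane and secreted proteins, and secretory epithelia such as the choroid plexus, rely on this machinery.

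Hippocampal neuron markers were bright on every array: Prox1 lay between 9.61 and 10.02, Neurod6 between 11.56 and 11.81 and Neurod2 between 10.61 and 10.97. Any pair of arrays correlated at r = 0.985 to 0.997 over all probe sets. By the X-linked gene Eif2s3, 3 of the control arrays (male control replicate 4, female control replicates 1 and 3) went against their sex label, and signal was flattened on 3 exposed arrays, namely replicate 1 of the males given 750 ppm perinatally and replicates 1 and 3 of those given 250 ppm perinatally. The labels were kept. Some of the medians and counts that rest on these arrays are also given without them, and those not so given may move as well. The numbers in the sample titles fell in 3 separate ranges: the first (12 arrays) held the controls of both sexes and the 750 ppm perinatal females, the third (4 arrays) the 750 ppm perinatal males, and the second (24 arrays) the other 6 groups. For 7 of the 8 exposed groups the range and the exposure therefore cannot be told apart. In whole tissue, fewer cells of a type and less RNA per cell cannot be told apart either. Precision was limited by how many arrays there were. Since no label says that animals came from separate litters, p-values measure only the spread between these samples.

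RefSeq promoter windows (GRCr8, 250 bases before to 50 after the start site) were at hand for 8 of the 10 genes, and are shown where they hold the ER stress response element, the sequence through which ATF6 and XBP1 are known to act on chaperone genes. The element ERSE is CCAAT, then 9 bases of any kind, then CCACG, and the related ERSE-II is ATTGG, then 1 base of any kind, then CCACG. Both strands were searched. In the 5 windows below, capitals mark the fixed bases of each match, and a match on the opposite strand reads as its reverse complement.
Hspa5: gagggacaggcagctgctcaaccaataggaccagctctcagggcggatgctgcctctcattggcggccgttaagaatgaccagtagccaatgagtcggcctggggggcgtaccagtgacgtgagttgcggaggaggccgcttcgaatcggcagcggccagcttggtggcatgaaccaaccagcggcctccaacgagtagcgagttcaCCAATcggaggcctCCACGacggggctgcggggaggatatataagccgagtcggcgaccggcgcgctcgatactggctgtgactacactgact
Hsp90b1: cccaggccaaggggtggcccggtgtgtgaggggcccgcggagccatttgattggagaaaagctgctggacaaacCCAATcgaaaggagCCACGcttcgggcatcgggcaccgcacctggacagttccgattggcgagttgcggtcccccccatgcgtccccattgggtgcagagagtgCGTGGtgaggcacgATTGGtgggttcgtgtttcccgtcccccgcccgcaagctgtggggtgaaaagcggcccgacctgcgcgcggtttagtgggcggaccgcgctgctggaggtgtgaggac
Creld2: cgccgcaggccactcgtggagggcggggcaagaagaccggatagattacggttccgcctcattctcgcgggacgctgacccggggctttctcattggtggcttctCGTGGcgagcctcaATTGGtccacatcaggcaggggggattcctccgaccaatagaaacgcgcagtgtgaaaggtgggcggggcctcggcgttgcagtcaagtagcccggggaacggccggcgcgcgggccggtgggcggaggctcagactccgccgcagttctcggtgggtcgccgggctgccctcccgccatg
Xbp1: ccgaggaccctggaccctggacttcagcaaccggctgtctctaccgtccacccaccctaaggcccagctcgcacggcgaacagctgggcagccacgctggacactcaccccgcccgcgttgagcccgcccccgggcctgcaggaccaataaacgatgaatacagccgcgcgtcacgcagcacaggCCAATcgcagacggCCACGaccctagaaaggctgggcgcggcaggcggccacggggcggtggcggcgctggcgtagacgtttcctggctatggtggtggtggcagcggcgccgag
Herpud1: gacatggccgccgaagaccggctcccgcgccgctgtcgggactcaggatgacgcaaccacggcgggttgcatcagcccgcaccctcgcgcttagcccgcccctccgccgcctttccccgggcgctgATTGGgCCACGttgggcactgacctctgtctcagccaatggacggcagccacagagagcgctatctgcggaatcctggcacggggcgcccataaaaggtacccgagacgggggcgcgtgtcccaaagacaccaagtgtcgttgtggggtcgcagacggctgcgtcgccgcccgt

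These windows are chr3:38452766-38453065 (plus strand) for Hspa5, chr7:23012244-23012543 (minus strand) for Hsp90b1, chr7:121789134-121789433 (plus) for Creld2, chr14:84604373-84604672 (plus) for Xbp1 and chr19:10614658-10614957 (minus) for Herpud1. ERSE was present in 4 of the 8 windows, against 22 of all 33469 promoter windows (0.0657%). It starts at -43 from the start site in Hspa5, at -65 in Xbp1, at -145 on the opposite strand in Creld2, and in Hsp90b1 at -176 on the forward and at -72 on the opposite strand. ERSE-II was present only in the Herpud1 window, at -124, against 17 of all windows (0.0508%). The 5-base ends CCACG and CCAAT, which are parts of ERSE, were each found in 8 of 8 windows, against 31.6% and 37.5% of all windows. Windows with a full element hold both ends by definition. ERSE and ERSE-II are known from genes of this kind, so their shares here describe the windows and are no independent result. TGACGTGG, a site for XBP1, and ATTGCATCA, an amino acid response element bound by ATF4, were found in 0 of the 8 windows, against 0.595% and 0.188% of all. Of the 60 windows available for the wider ER list described below, 5 held ERSE (Calr, Canx, Derl3, Dnajc3 and Ero1b) and 2 held ERSE-II (Dnajb11 and Hyou1). A match describes the letters of a window and no binding was measured. Sites outside the windows, or differing from a motif at a fixed base, were not counted, so an absence does not show that a gene lacks such a site.

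**Figure D1:**
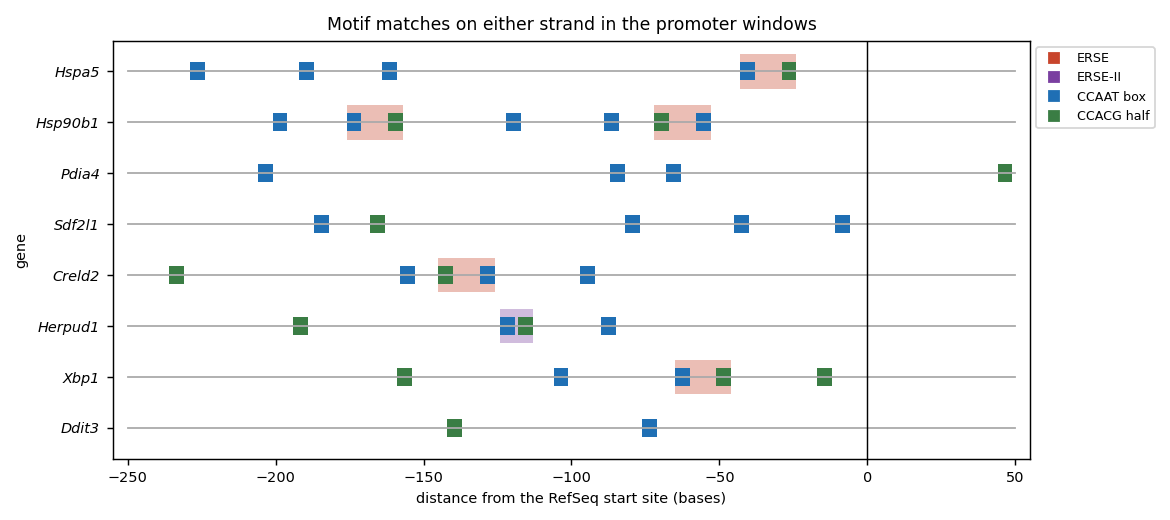
Promoter windows of 8 ER genes drawn by distance from the RefSeq start site in bases (x axis), 1 gene per row. Blue and green blocks mark CCAAT and CCACG on either strand, pale red bands mark ERSE and the pale violet band marks ERSE-II. Hspa5, Hsp90b1, Creld2 and Xbp1 hold ERSE and Hsp90b1 holds 2 of them, while Pdia4, Sdf2l1 and Ddit3 hold the short boxes without the full element.

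The mean signal over all 40 arrays placed Hspa5 (BiP, the Hsp70 chaperone of the ER) at 11.97, Hsp90b1 (GRP94, the Hsp90 of the ER) at 11.69 and Xbp1 at 11.28, which are the 98.6th, 97.8th and 95.9th percentiles of genes by signal, and the other 7 between 7.69 (Sdf2l1) and 9.84 (Pdia6). Probe sets differ in how they bind, so these levels rank no gene against another. For 8 of the 10 genes the lowest group mean was that of the males exposed perinatally to 750 ppm. The exceptions were Xbp1, lowest in the males exposed postnatally to 250 ppm, and Ddit3, lowest in the males exposed perinatally to 250 ppm. The highest group mean was that of a control group for 6 genes, and that of the females exposed perinatally to 750 ppm for Pdia4, Manf, Creld2 and Herpud1.

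The 10 group means of a gene spanned between 0.15 (Ddit3, Hsp90b1) and 0.41 (Pdia4), and neighbours in the order of the means mostly differed by less than the spread within groups. Of the 9 steps between neighbouring groups, 0 exceeded the pooled SD within groups for each gene except Pdia4. For Pdia4, a disulfide isomerase that helps proteins form their disulfide bonds, 1 step did: the males exposed perinatally to 750 ppm averaged 8.74 ± 0.16, and the next lowest group, the males exposed perinatally to 250 ppm, 8.94 ± 0.16 (SD, n = 4 each), a step of 0.20 beside a pooled SD of 0.148. For Hspa5 the group means ran upward from 11.82 in the males exposed perinatally to 750 ppm, through 11.89 (females 250 ppm perinatal), 11.92 (males 750 ppm postnatal), 11.93 (males 250 ppm perinatal), 11.94 (females 250 ppm postnatal), 11.95 (males 250 ppm postnatal), 12.02 (females 750 ppm postnatal) and 12.02 (females 750 ppm perinatal), to 12.08 in male and 12.10 in female controls, with a pooled SD of 0.114. The 8 exposed groups thus lay below the 2 control groups, and no step between neighbours was larger than 0.07. Means put in order lie close to their neighbours by construction, and the SD is that of single arrays. The steps therefore do not test whether groups differ.

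**Figure D2:**
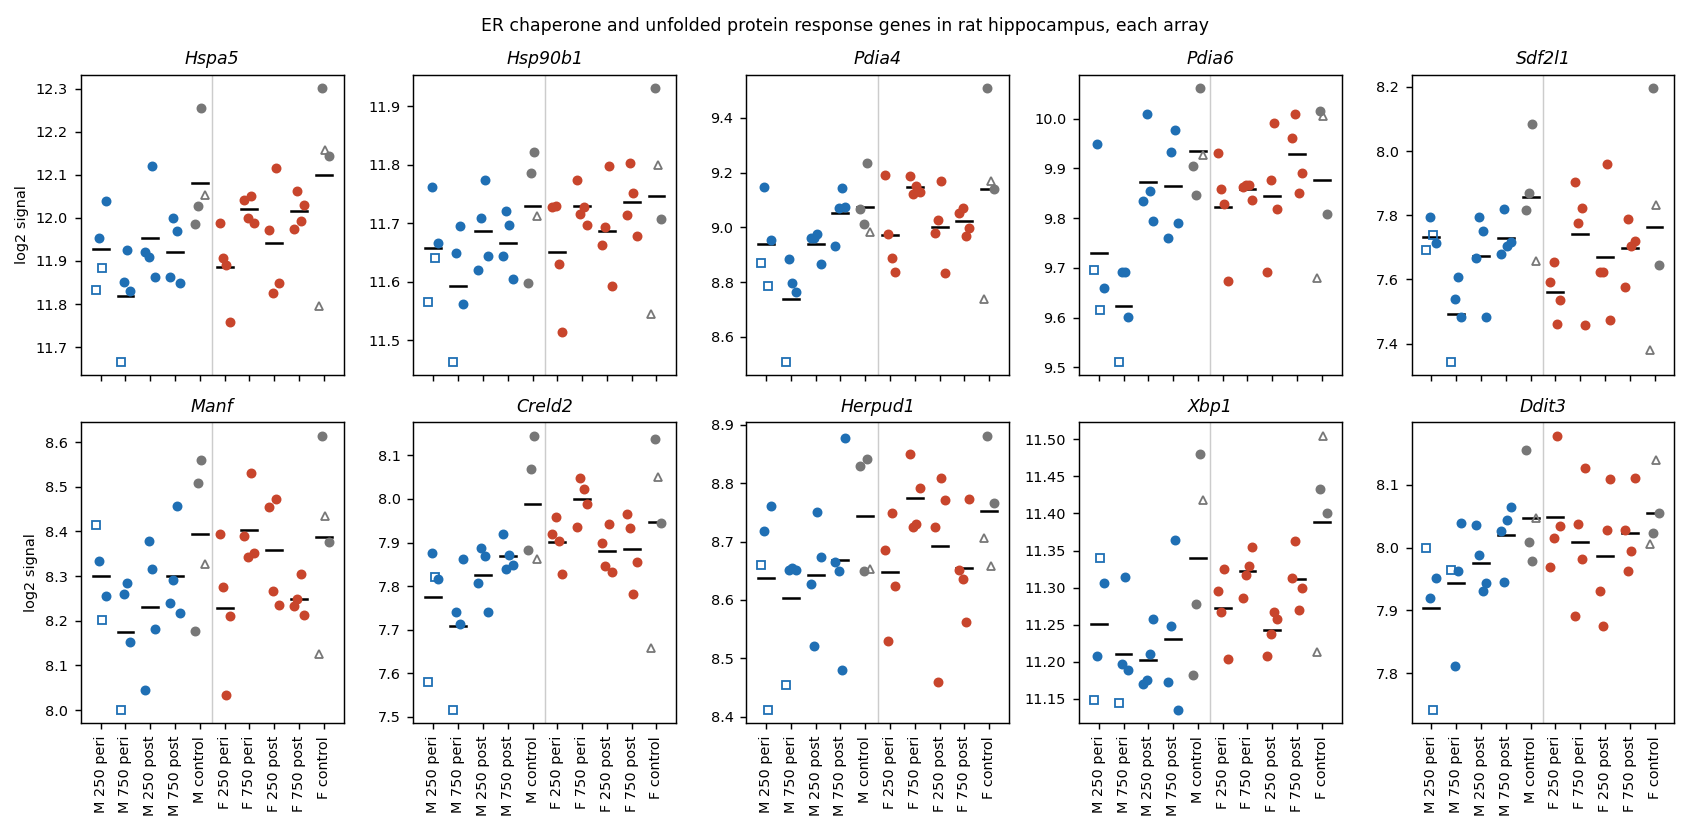
Log2 signal of each gene (y axis, a scale of its own per panel) on every array, by group (x axis, M male, F female, dose in ppm, peri perinatal, post postnatal), with bars at group means. Blue and red points are exposed males and females, grey points controls, open squares the 3 flattened arrays and open triangles the 3 controls that go against their sex label. The males exposed perinatally to 750 ppm have the lowest mean in 8 of 10 panels, and for Pdia4 the female controls spread most, from 8.74 to 9.51.

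Averaged over all exposed groups, each of the 10 genes lay slightly below controls, and none of them passed the test. Hspa5 had a lowest, median and highest signal of 11.67, 11.94 and 12.12 over the 32 exposed arrays, against 11.79, 12.10 and 12.30 over the 8 controls. The groups overlapped, and 30 of 32 exposed arrays lay below the control median. The difference was -0.16 (SE 0.04, 95% interval -0.24 to -0.07, adjusted p = 0.119 in the limma fit), a signal 0.898 times that of controls. Xbp1, the transcription factor of the IRE1 branch, had 11.14, 11.26 and 11.36 in exposed arrays, against 11.18, 11.41 and 11.50 in controls. All 32 exposed arrays lay below the control median, while the 3 lowest controls lay within the exposed range. Its difference was -0.11 (SE 0.03, adjusted p = 0.154). Splicing of the Xbp1 mRNA was not measured here.

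Among the other chaperones and folding enzymes, Hsp90b1 differed by -0.06 (SE 0.03, adjusted p = 0.743), Pdia4 by -0.13 (SE 0.06, adjusted p = 0.54) and Pdia6, another disulfide isomerase, by -0.09 (SE 0.04, adjusted p = 0.619). Sdf2l1, a partner of the Hspa5 system, differed by -0.15 (SE 0.06, adjusted p = 0.54). Its exposed arrays had 7.34, 7.69 and 7.96, against 7.38, 7.83 and 8.20 in controls, so that the ranges overlapped almost wholly. The secreted or ER-resident stress proteins followed: Creld2 by -0.11 (SE 0.04, adjusted p = 0.442) and Manf, a neurotrophic factor retained in the ER, by -0.11 (SE 0.05, adjusted p = 0.615). Herpud1, a membrane protein of ER-associated degradation, differed by -0.08 (SE 0.05, adjusted p = 0.722) and Ddit3 (CHOP, the transcription factor of the PERK branch) by -0.06 (SE 0.03, adjusted p = 0.741).

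The limma fit over all exposed groups called 111 of 29214 probe sets (0.38%) and 0 of the 10 genes. At an unadjusted p under 0.05, 7 of the 10 were lower, against 2.75% of probe sets. The median difference of the 10 was -0.11 and all 10 were below 0, against a median of 0.0026 and 47.8% below 0 over all genes. These counts rest on the 8 controls that every gene shares: without male control replicate 3 or without female control replicate 2, the brightest array of its group for most of these genes, 2 of the 10 were lower at an unadjusted p. The count was 4 without the flattened arrays and 9 without the 3 mismatched controls, with all 10 below 0 in both. Without female control replicate 1, the dimmest female control for most of these genes, Hspa5 (-0.21, adjusted p = 0.00729) and Xbp1 (-0.14, adjusted p = 0.0327) were called, as were Hspa5 without all 3 mismatched controls (-0.22, adjusted p = 0.0404) and Xbp1 without male control replicate 1 (-0.13, adjusted p = 0.045).

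Of the single exposures, 750 ppm perinatally in males gave the largest median difference of the 10 genes from controls, and 0 of the 10 passed the test. The groups of 4 separated without overlap for Hspa5, Pdia4, Pdia6 and Sdf2l1. Sdf2l1 read 7.34, 7.54, 7.61 and 7.48 in the exposed males, against 7.82, 7.87, 8.09 and 7.66 in male controls. The highest exposed array lay just below the lowest control, and the difference was -0.36 (SE 0.11, adjusted p = 0.361). Pdia4 read 8.51, 8.89, 8.80 and 8.76 in the exposed males, against 9.07, 9.01, 9.24 and 8.98 in male controls. Every exposed array was below every control, with a difference of -0.34 (SE 0.10, adjusted p = 0.311). Pdia6 read 9.51, 9.69, 9.69 and 9.60, against 9.90, 9.85, 10.06 and 9.93 in male controls. This was the clearest gap of the 10 genes, at -0.31 (SE 0.07, interval -0.46 to -0.16), and its adjusted p of 0.136 in the limma fit was the smallest of the 10. Hspa5 read 11.67, 11.85, 11.93 and 11.83, against 11.99, 12.03, 12.26 and 12.05 in male controls. The difference was -0.26 (SE 0.08, adjusted p = 0.264).

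The other 6 genes overlapped between these groups. Creld2 read 7.52, 7.74, 7.71 and 7.86 in the exposed males, against 7.88, 8.07, 8.14 and 7.86 in male controls, and differed by -0.28 (SE 0.08, adjusted p = 0.257). Its highest exposed array and lowest control were level at 2 decimals. Manf differed by -0.22 (SE 0.09), Hsp90b1 by -0.14 (SE 0.06), Herpud1 by -0.14 (SE 0.08), Xbp1 by -0.13 (SE 0.06) and Ddit3 by -0.10 (SE 0.06), with adjusted p between 0.548 and 0.712. The fit called 17 probe sets (0.0582%) here, and 0 of the 10 genes. Of the 10, 8 were lower at an unadjusted p under 0.05, against 3.06% of probe sets, and 4 of 10 separated without overlap, against 1.31%. Most of the 10 genes varied together within groups (median r of their pairs 0.54, described below), so in every comparison such counts are not independent results. The median difference was -0.24 with all 10 below 0, against a median of 0.012 and 44.6% below 0 over all genes. The count of 8 was 5 without the flattened exposed replicate 1, and 5 without male control replicate 3, where the median was -0.18. Without the flattened arrays the same 4 genes still separated and the median was -0.19, and without the mismatched control Creld2 separated as well.

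The remaining exposures gave smaller differences. In males the median of the 10 genes was -0.13 after 250 ppm perinatally, -0.13 after 250 ppm postnatally and -0.08 after 750 ppm postnatally, with 10 of 10 below 0 each time. Of the 10, 3, 2 and 1 were lower at an unadjusted p in that order, against 2.77%, 3.04% and 5.51% of probe sets. Without male control replicate 3 these counts were 2, 0 and 0, and the medians -0.08, -0.09 and -0.05. Without the flattened arrays the count after 250 ppm perinatally was 0 and the median -0.09. None was called, where the fits called 0.089%, 0.0342% and 0.0445% of probe sets. Pdia4 alone separated without overlap, after 250 ppm postnatally (1.61% of probe sets), at 8.96, 8.96, 8.98 and 8.87, against 9.07, 9.01, 9.24 and 8.98 in male controls. Its highest exposed and lowest control array were level at 2 decimals, and the difference was -0.13 (SE 0.10, adjusted p = 0.938). The largest in this set were Creld2 (-0.22, SE 0.08, adjusted p = 0.473) and Pdia6 (-0.20, SE 0.07, adjusted p = 0.468) after 250 ppm perinatally. In females the medians were -0.11 (250 ppm perinatal, 10 of 10 below 0), -0.02 (750 ppm perinatal, 6 of 10), -0.07 (250 ppm postnatal, 10 of 10) and -0.07 (750 ppm postnatal, 9 of 10). Without the mismatched controls these medians were -0.17, -0.09, -0.15 and -0.16 in that order. Again 0 of the 10 were called, with 0.0171%, 0.157%, 0.0171% and 0.0137% of probe sets called in the same order. At an unadjusted p, 2 of 10 were lower after 250 ppm in either window, against 2.08% of probe sets perinatally and 1.47% postnatally, and these counts ranged from 0 to 6 and from 0 to 5 when single arrays were left out. After 750 ppm 0 of 10 were lower, and without female control replicate 1 the counts were 2 perinatally and 5 postnatally. Hspa5 had the largest female difference, -0.21 (SE 0.08, adjusted p = 0.618) after 250 ppm perinatally, where it read 11.99, 11.91, 11.89 and 11.76 in exposed females, against 11.79, 12.30, 12.16 and 12.14 in female controls. Control replicate 1 lay near the bottom of the exposed range and the other 3 lay above every exposed array.

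The differences depended on single control arrays in both sexes. Over the 4 exposed female groups the median of the 10 genes was -0.07, and it was 0.0068 with 5 of 10 below 0 without female control replicate 2, -0.14 without female control replicate 1, and -0.13 without the controls that go against their label. In the females exposed perinatally to 750 ppm, the exposed group whose title numbers lie in the controls' range, the median of -0.02 became 0.05 without female control replicate 2, -0.08 without replicate 1 and -0.09 without the mismatched arrays. Over the 4 exposed male groups the median was -0.15 with 10 of 10 below 0, and -0.17 to -0.11 when single arrays were left out. The averaged fits called 0.0445% of probe sets in males and 0.024% in females, and 0 of the 10 genes in either. At an unadjusted p, 5 were lower in males (Hspa5, Pdia6, Sdf2l1, Creld2 and Xbp1, against 2.92% of probe sets) and 2 in females (Hspa5 and Xbp1, against 1.23%). The male count was 1 without male control replicate 3. The female count was 0 without female control replicate 2, 7 without replicate 1 and 4 without the mismatched controls.

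**Figure D3:**
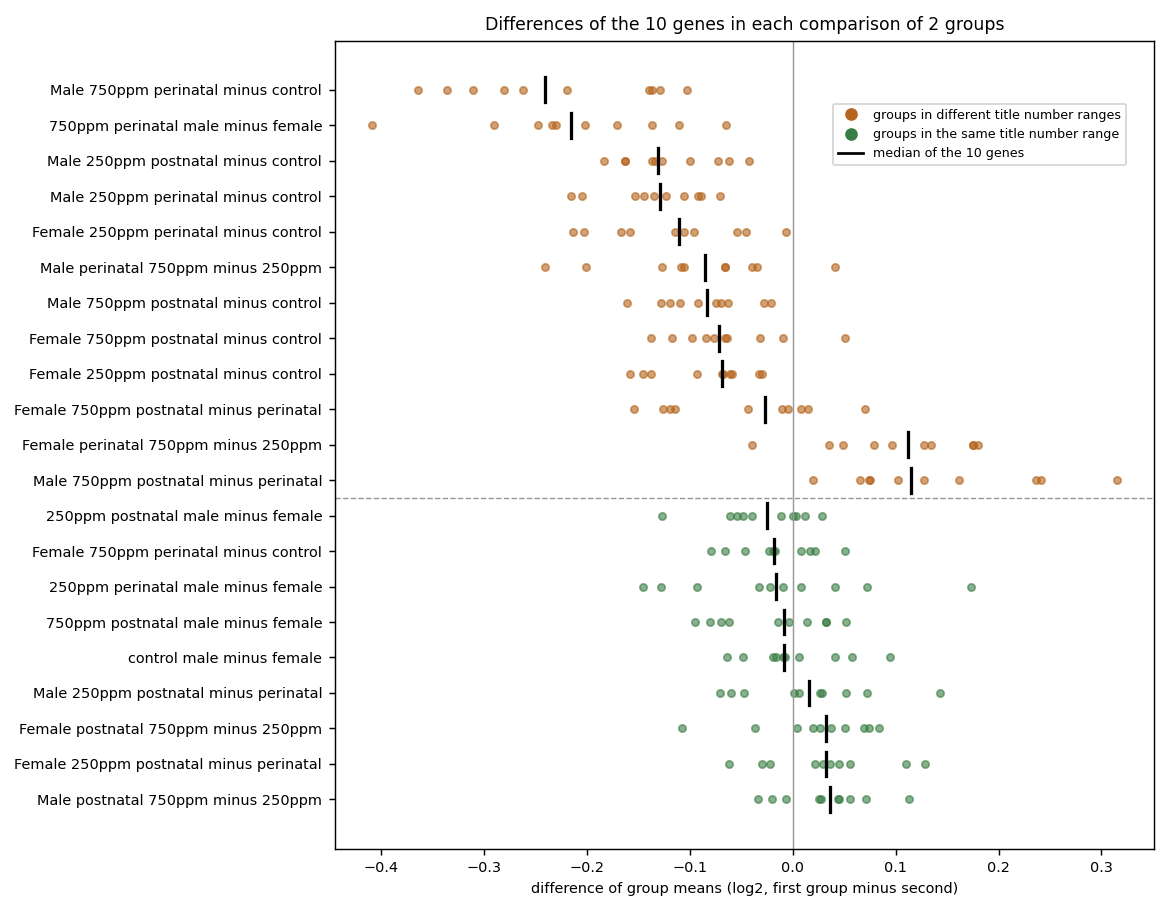
Difference in group means (x axis, log2, first-named group minus second) of each of the 10 genes in 21 comparisons of 2 groups (y axis), with a black bar at the median. Brown comparisons set groups in different ranges of title numbers against each other, green ones groups in the same range. Most brown comparisons are of exposed groups with controls, and most green ones of sex, dose or window. The medians run from -0.24 to 0.11 in the 12 brown comparisons and from -0.03 to 0.04 in the 9 green ones.

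The size of the shared shift was mostly larger between ranges of title numbers than within them. In the 12 comparisons of 2 groups from different ranges, the median difference of the 10 genes lay between -0.24 and 0.11, and its size was at least 0.027. In the 9 comparisons within a range it lay between -0.03 and 0.04. The smallest across ranges, -0.03 for females at 750 ppm postnatally minus perinatally, was no larger than several within. Within a range, males at 250 ppm postnatally minus perinatally had -0.05 without the flattened arrays, and females exposed perinatally to 750 ppm had -0.09 without the mismatched controls. Males minus females, also within a range, had 0.06 at 250 ppm perinatally without the flattened arrays. In controls this sex difference was -0.06 without the mismatched arrays. The median over all genes lay between -0.0093 and 0.0164 across ranges and between -0.0049 and 0.0125 within them. Quantile normalization across arrays holds such a median nearly fixed, so it cannot show whether other genes moved between ranges. The part of the title ranges in these differences cannot be told apart from exposure for the 7 groups above. The 2 sets of comparisons also differ in kind. Most of those across ranges set an exposed group against controls, while most of those within a range are of sex, dose or window. The males exposed perinatally to 750 ppm enter only comparisons across ranges.

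Dose and window comparisons gave no call among the 10 genes. Within a range, 750 minus 250 ppm gave medians of 0.04 in males and 0.03 in females exposed postnatally, and postnatal minus perinatal at 250 ppm gave 0.02 in males and 0.03 in females. The fits called 0.0103%, 0%, 0.00342% and 0.0103% of probe sets in that order and 0 of the 10 genes. Across ranges, the males exposed to 750 ppm had all 10 genes higher after postnatal than after perinatal exposure, with a median of 0.11, or 0.08 without the flattened perinatal replicate 1. Pdia6 read 9.76, 9.93, 9.98 and 9.79 after postnatal exposure, against 9.51, 9.69, 9.69 and 9.60 after perinatal exposure, without overlap. It differed by 0.24 (SE 0.07, adjusted p = 0.128), and Pdia4 by 0.32 (SE 0.10, adjusted p = 0.134). With Sdf2l1 (0.24, SE 0.11, adjusted p = 0.251), 3 of 10 separated without overlap, against 2.69% of probe sets. The fit called 0.175% of probe sets and 0 of these 10. At the perinatal window, 750 minus 250 ppm gave a median of -0.09 in males (-0.04 without the flattened replicate 1 at 750 ppm) and 0.11 in females, and postnatal minus perinatal at 750 ppm gave -0.03 in females. Of probe sets 0.0411%, 0.0856% and 0.0548% were called in that order, and 0 of the 10 genes.

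The 1 call among the 10 genes in all 28 contrasts was Pdia4, between males and females exposed perinatally to 750 ppm. Pdia4 read 8.51, 8.89, 8.80 and 8.76 in these males, against 9.19, 9.12, 9.15 and 9.13 in the females. Every male array lay below every female array, and the female values lay within 0.07 of each other. The difference was -0.41 (SE 0.10, interval -0.61 to -0.21, adjusted p = 0.0439 in the limma fit), a male signal 0.753 times the female. Creld2 came next, at 7.52, 7.74, 7.71 and 7.86 in males, against 7.94, 8.05, 8.02 and 7.99 in females, a difference of -0.29 (SE 0.08, adjusted p = 0.0628). It too was without overlap, as were Pdia6 (-0.23, SE 0.07), Manf (-0.23, SE 0.09), Hspa5 (-0.20, SE 0.08), Herpud1 (-0.17, SE 0.08) and Hsp90b1 (-0.14, SE 0.06). Sdf2l1 (-0.25, SE 0.11), Xbp1 (-0.11, SE 0.06) and Ddit3 (-0.06, SE 0.06) overlapped.

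The fit called 206 probe sets (0.705%) in this comparison. Against that, 1 of the 10 genes was called, 7 of 10 lay wholly below (4.78% of probe sets), and 8 of 10 were lower at an unadjusted p (9.13%). The count of 8 was 3 without the flattened male replicate 1 and 2 with each array's slope as a covariate. The median of the 10 was -0.22, against -0.0022 over all genes. The call of Pdia4 did not hold with a further quantile normalization (-0.36, adjusted p = 0.0582), with only the 2 groups in the fit (adjusted p = 0.0857), with each array's slope as a covariate (-0.24, adjusted p = 0.759) or without the flattened male replicate 1 (-0.33, adjusted p = 0.246). Leaving out any other array except male replicate 2 also ended it. The 2 groups come from different title ranges, which cannot be told apart from sex here. In the other sex comparisons, which lie within a range, the medians were -0.02 (250 ppm perinatal), -0.03 (250 ppm postnatal), -0.01 (750 ppm postnatal) and -0.01 (controls), with 0 of the 10 called and 0.103%, 0%, 0% and 0% of probe sets called. The median for 250 ppm perinatally was 0.06 without the flattened arrays, and that for controls was -0.06 without the mismatched arrays.

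Whether lead acted differently in the sexes was tested as an interaction. For 750 ppm perinatally, the exposure difference was lower in males than in females for all 10 genes, with a median of -0.21. The largest were Pdia4 (-0.34, SE 0.14), Sdf2l1 (-0.34, SE 0.16), Creld2 (-0.33, SE 0.11) and Pdia6 (-0.29, SE 0.11). Of the 10, 4 were lower at an unadjusted p under 0.05, against 3.7% of probe sets. That count was 2 without male control replicate 3, 2 without the flattened or the mismatched arrays, and 7 without female control replicate 2. No gene of the 10 passed, the smallest adjusted p being 0.559 (Creld2), and the fit called 0.0205% of probe sets. Medians of the interaction were 0.03 at 250 ppm perinatally, -0.02 at 250 ppm postnatally and -0.04 at 750 ppm postnatally, with 0% of probe sets called in each. Without the mismatched controls they were 0.09 at 250 ppm perinatally and 0.03 at 750 ppm postnatally. This test rests on the controls whose sex labels are in doubt, and without them the median for 750 ppm perinatally was -0.14. The males exposed perinatally to 750 ppm have a title range of their own, while the females so exposed share the range of the controls. A sex difference in the response and a difference between title ranges therefore cannot be told apart at this exposure.

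The wider ER machinery was read from a list of 69 genes, of which 61 were measured. Over all exposed groups 1 of the 61 rose and 0 fell, where 0.38% of all probe sets were called. The gene that rose was Psat1, an enzyme of serine synthesis induced by ATF4: it had a lowest, median and highest signal of 11.23, 11.40 and 11.57 in exposed arrays, against 11.15, 11.22 and 11.35 in controls. All 32 exposed arrays lay above the control median. The difference was 0.16 (SE 0.03, adjusted p = 0.0128 in the limma fit). The call held when any single array was left out, and without the 3 mismatched controls the difference was still 0.16, with an adjusted p of 0.0983. The other 8 measured targets of the PERK and ATF4 branch did not pass, and Atf3, a stress-induced transcription factor, was at -0.22 (SE 0.08, adjusted p = 0.437).

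The gene of the 61 next to Psat1 in p was Calr, the calcium-binding chaperone calreticulin, which had 11.77, 11.95 and 12.10 in exposed arrays, against 11.93, 12.08 and 12.13 in controls. It differed by -0.10 (SE 0.03, adjusted p = 0.116). Over the whole list the median was -0.01 with 38 of 61 below 0, so the list sat nearer to the median of all genes (0.0026) than the 10 genes did (-0.11). By role, the medians were 0.02 for stress sensors and transcription factors (4 of 9 below 0), -0.02 for chaperones and co-chaperones (9 of 12), -0.02 for isomerases (7 of 10), -0.01 for translocation and glycosylation (7 of 10), -0.01 for degradation (6 of 11) and -0.01 for PERK and ATF4 targets (5 of 9).

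In the males exposed perinatally to 750 ppm, 0 of the 61 passed, 43 of 61 lay below their controls, against 44.6% of all genes, and the median was -0.04. Chaperones and co-chaperones lay below in 10 of 12 (median -0.06), and degradation genes in 10 of 11 (median -0.03), while sensors lay below in 4 of 9. Dnajc3, a co-chaperone of Hspa5, had the smallest p of the 61 and is named after its values were seen, with 8.47 in exposed males and 8.78 in male controls, a difference of -0.31 (SE 0.09, adjusted p = 0.261). Between the males and females exposed perinatally to 750 ppm, 44 of 61 lay lower in males, against 50.7% of all genes. Of the 61, 1 fell, where 0.705% of probe sets were called: Fkbp14, a proline isomerase of the ER named after its values were seen. It read 7.01, 7.18, 7.11 and 6.99 in males, against 7.68, 7.54, 7.66 and 7.34 in females, a difference of -0.48 (SE 0.12, adjusted p = 0.0453). Without the flattened male replicate 1 its adjusted p was 0.174, and it passed in 1 of the 8 fits that left out 1 array.

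Marker genes of other cells and states moved with some of these comparisons. Over all exposed groups, 9 of 9 activity-induced genes lay below controls (median -0.40), where 47.8% of all genes lay below and 0.38% of probe sets were called. Of the 9, Junb, Egr2, Arc, Nr4a1 and Nr4a3 fell. Of the oligodendrocyte genes 7 of 7 lay above (median 0.21), and Mog, Mag, Cnp, Cldn11 and Ugt8, all genes of the myelin sheath or its synthesis, rose. The endothelial gene Cd93 (-0.33, adjusted p = 0.00393) and the meningeal gene Fbln2 (-0.43, adjusted p = 0.0334) fell in the same limma fit. Their lists of 6 genes did not fall as a whole. Endothelial means of exposed groups were 8.18 to 8.40 in males (controls 8.38) and 8.25 to 8.37 in females (controls 8.28). Meningeal means were 8.20 to 8.60 in males (controls 8.45) and 8.23 to 8.64 in females (controls 8.40). The called marker genes are named after their values were seen, and their lists hold none of the 10 ER genes. In the males exposed perinatally to 750 ppm, the mean of the activity-induced genes lay between 8.53 and 9.11, against 9.48 to 9.67 in male controls, and all 9 lay below (median -0.58, 0 called). Choroid plexus genes ranged widely within every group: their mean lay between 6.50 and 9.51 in these males, against 7.29 to 11.01 in male controls, with 6 of 6 below (median -1.04, 0 called). Endothelial genes lay below in 5 of 6 (median -0.14, Cd93 fell by 0.57), and their mean was 8.01 to 8.28, against 8.35 to 8.40 in male controls. The meningeal Fbln2 fell by 1.03, while the mean of the meningeal list overlapped, at 8.01 to 8.43, against 8.12 to 8.93 in male controls. Between the males and females exposed perinatally to 750 ppm, 6 of 6 endothelial, choroid plexus, meningeal and microglial genes lay lower in males, with medians of -0.16, -0.41, -0.37 and -0.11, and among these the microglial Csf1r fell by 0.20. Choroid plexus genes averaged 6.50 to 9.51 in these males, against 6.83 to 10.68 in the females, and meningeal genes 8.01 to 8.43, against 8.45 to 8.99. Of 6 liver plasma protein genes, 5 lay lower in males and Alb fell by 1.10 and Apoc3 fell by 0.60. The hippocampal neuron markers had medians of -0.05 over all exposed groups, 0.0045 in the 750 ppm perinatal males against controls and 0.0069 between these males and females, with 0 of 6 called. The part of these cells and states in the ER gene differences was not tested.

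Within groups, the chaperones varied together from array to array. After the group means were removed, Hspa5 correlated over the 40 arrays with Hsp90b1 at r = 0.85 and with Pdia4 at r = 0.81, Hsp90b1 with Pdia4 at r = 0.81 and Pdia4 with Pdia6 at r = 0.79. The median over the 45 pairs of the 10 genes was 0.54 and 36 pairs were above 0, against a median of 0.0145 over all pairs of the 14506 genes, of which 2.1% exceeded 0.54. Arrays share their RNA quality, dissection and normalization, so these values are a description. Since each group lies within 1 title range, the ranges do not enter them. Female control replicates 1 and 2 lay far from their group mean, at -0.40 and 0.37 for Pdia4 and at -0.38 and 0.43 for Sdf2l1. They weigh heavily in these correlations. Neither the r of pairs nor the ranks by likeness to Hspa5 below were computed without them.

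The 10 genes shared this pattern to different degrees. The median r with the other 9 was 0.74 for Hsp90b1, 0.70 for Pdia4, 0.68 for Hspa5 and 0.65 for Sdf2l1, then 0.57 for Pdia6 and Creld2, 0.55 for Manf and 0.40 for Xbp1. Herpud1 stood at 0.18 and Ddit3 at -0.11, the only negative median of the 10. Female control replicate 1 lay furthest below its group, with all 10 genes below and a mean deviation of -0.23, and female control replicate 2 furthest above, at 0.19. Female control replicate 1 is 1 of the 3 mismatched controls. The flattened male 750 ppm perinatal replicate 1 followed at -0.13, with 9 of 10 below.

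**Figure D4:**
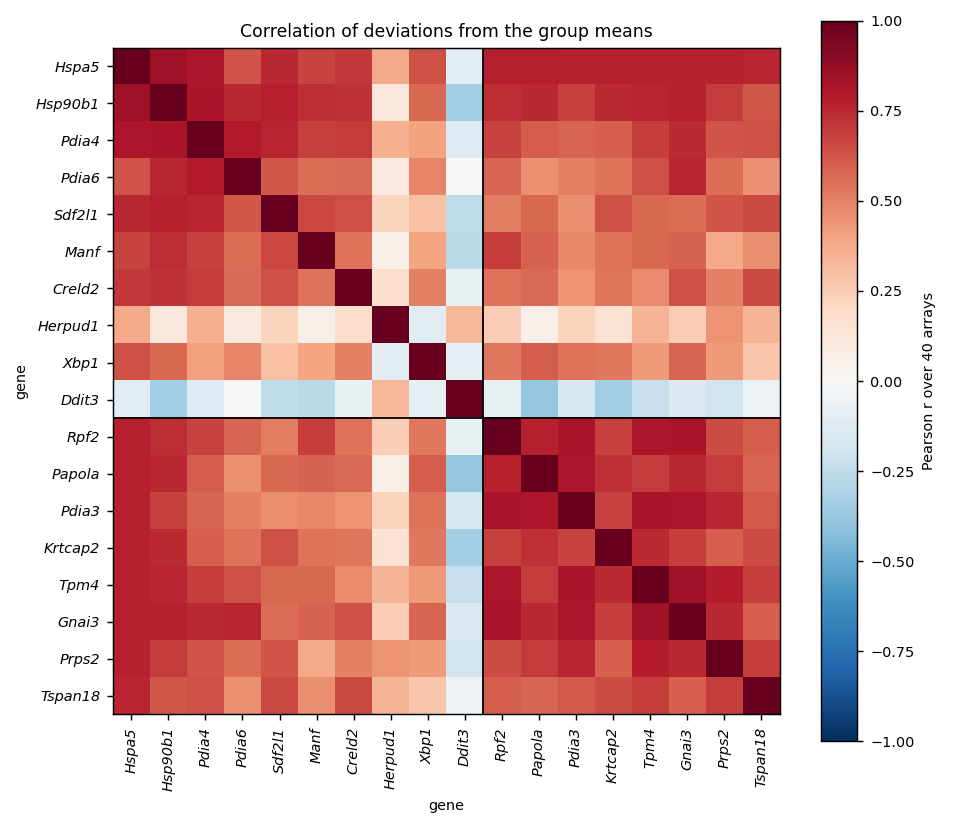
Pearson r over 40 arrays between deviations from group means, for the 10 genes and 8 other genes most like Hspa5 (both axes, black lines divide the sets), with colour from -1 (blue) to 1 (red). The upper left block is red apart from the rows of Herpud1 and Ddit3, and the 8 other genes are red with the chaperones.

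Among the other 14505 genes, the 10 whose deviations were most like those of Hspa5 were Hsp90b1 (0.85), Pdia4 (0.81), Rpf2 (0.78), Papola (0.77), Pdia3 (0.77), Krtcap2 (0.77), Tpm4 (0.77), Gnai3 (0.77), Prps2 (0.77) and Tspan18 (0.76). Hsp90b1, Pdia4 and Pdia3, a disulfide isomerase for glycoproteins, are ER folding proteins, and Krtcap2 is a subunit of the glycosylation complex in the ER membrane. Sdf2l1 stood at rank 16, Creld2 at 40, Manf at 78, Xbp1 at 173 and Pdia6 at 188, while Herpud1 stood at 2003 and Ddit3 at 9454. Over the 61 genes of the wider list the median r with Hspa5 was 0.37 and 19 exceeded 0.5, against a median of 0.0055 over all genes.

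The deviations of Hspa5 were also set against those of 10 marker lists and of the array slope, 11 relations in all, over 40 arrays, with permutation within groups. Choroid plexus genes gave r = 0.54 and rho = 0.49 (permutation p = 0.0026 and 0.00557, adjusted 0.026 and 0.0407), and r = 0.51 without the 2 arrays farthest from the median. Endothelial genes gave r = 0.48 and rho = 0.44 (adjusted p = 0.026 and 0.0407 by permutation, r = 0.45 without 2 arrays), and the array slope gave r = 0.40 and rho = 0.43 (adjusted p = 0.03 and 0.0407 by permutation, r = 0.34 without 2 arrays). Astrocyte genes gave r = 0.40 and rho = 0.41 (adjusted p = 0.0433 and 0.046 by permutation, r = 0.35 without 2 arrays). The liver list, which shares Ttr with the choroid plexus list, gave r = 0.53 and rho = 0.45 (adjusted p = 0.026 and 0.0407 by permutation), or r = 0.38 without 2 arrays. The other 6 relations did not pass. Hippocampal neuron genes came nearest, at r = 0.32 and rho = 0.27 (adjusted p = 0.0955 and 0.236 by permutation, r = 0.22 without 2 arrays). Activity-induced genes (r = -0.20, rho = -0.17) and oligodendrocyte genes (r = -0.02, rho = -0.06) were among the rest.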

How the data were processed

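The 40 samples were assigned to 10 groups by their titles. The deposited values were log2 RMA signals per probe set (background-corrected, quantile-normalized across arrays and summarised over probes), used here as the authors left them. RMA and Partek are named in the submitters' processing notes with no version. Symbols came from GEO's platform annotation, in which 15310 probe sets carry 1 symbol, 323 several and 13581 none. A limma model (3.58.1 in R 4.3.3) with 10 group means was fitted to all 40 arrays with a variance trend, giving 28 contrasts: 8 exposures, 3 averages over exposures, 4 of dose, 4 of window, 5 of sex and 4 interactions. P-values were two-sided, adjusted by Benjamini-Hochberg over 29214 probe sets per contrast, and called under 0.05. "Lower at an unadjusted p" means under 0.05 before adjustment. The genes named were the 10 genes, from the wider list those called in an exposure contrast and otherwise the 3 of smallest p over all exposed groups, and the 10 most like Hspa5. Dnajc3, Fkbp14 and the called marker genes were added after their values were seen. Relations used 100000 permutations. The fit was tested on simulated data.

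The 10 genes, the lists and the tests were chosen with earlier results of these data known. Alternatives were a filter on the dimmest 40% of probe sets, quantile normalization, the compared groups only, array weights (statmod 1.5.0), no variance trend, array slope as a covariate, pooled controls and arrays left out. Counts of genes below 0 or without overlap were recomputed without the mismatched and the flattened arrays, an alternative chosen after seeing the data. Figures were drawn with matplotlib 3.10.9.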

Additional observations from a re-analysis of the deposited data

Results flagged for a closer look

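In 3 of 100 sets of 4 arrays (10 genes in 10 groups), 1 array stood apart from the other 3 by more than Dixon's 95% critical share of the group's range. Chance flags about 1 group in 20. Pdia4 read 8.87 in male 250 ppm postnatal replicate 4, against 8.96 to 8.98 in the others, a gap of 0.842 of the range. Pdia6 read 9.84 in female 750 ppm perinatal replicate 4, against 9.86 to 9.87 in the others (0.855 of the range), where the whole group spans a few hundredths. Herpud1 read 8.45 in male 750 ppm perinatal replicate 1, against 8.65 to 8.66 in the others (0.977 of the range), and that array is 1 of the 3 with flattened signal.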

How the results depend on the processing

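No paired analysis was possible because the labels carry no replicate numbers shared between groups. Each of the 10 genes had 1 probe set, so averaging a gene's probe sets gave no other value, and a fit of the compared groups only was not separate for the contrast over all groups. The count of the 10 genes called between males and females exposed perinatally to 750 ppm was 1. It was 2 without the dimmest 40% of probe sets, 2 with array weights, 0 with a further quantile normalization, 0 with the array slope as a covariate, 0 with the compared groups only and 0 without the flattened arrays, and between 0 and 2 when single arrays were left out. The second gene was Creld2 each time. Over all exposed groups the count was 0, it was 1 without the 3 mismatched controls (Hspa5), and between 0 and 2 when single arrays were left out. In the other 26 contrasts the count stayed at 0 under each alternative run. Medians of the 10 genes in most contrasts are no larger than the SD of 0.109 between replicates of an array's median. That SD is of single arrays and exceeds the error of a difference between group means, so it does not test the medians. The average over exposed females was 0.0068 (-0.07 as reported) without female control replicate 2. Counts of all probe sets called changed by more than 1.5 times in 185 of 517 alternative fits: 38 to 149 over all exposed groups (111 as reported), 20 to 729 between the perinatal 750 ppm males and females (206) and 0 to 42 for these males against controls (17), with 43 to 125, 37 to 1256 and 4 to 22 when single arrays were left out.

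What limits these results is the 4 arrays per group, the spread of the female controls, and the title ranges, which hold all controls with only 1 exposed group.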
